A study of Mus musculus with 6 samples.

Results

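Sox9 and 9 genes of the cartilage matrix were followed in RNA-seq of mouse brains. The 10 genes were Sox9, Col2a1, Col9a1, Col9a2, Col9a3, Col11a1, Acan, Hapln1, Matn1 and Comp. The genes were chosen by their biology after the counts of these same samples were known. In those counts Sox9 and a Col9a1 ID were lower in males. The difference between the sexes is therefore described, and test calls that include these genes are not read as evidence for it. All RefSeq transcript IDs of these genes in the count tables were kept, which gave 11 of 23485 IDs, because Col9a1 has 2. The tissue was whole brain from wild-type C57BL/6 embryos at embryonic stage E15.5, in 3 female and 3 male samples without any treatment. Several embryos, sexed by their gonads, contributed RNA to each sample, so its value is an average over a pool. Samples are called female 1 to 3 and male 1 to 3 after their labels. The samples held 4908565 to 10294443 counts each. At these totals a count of 0 allows 0.291 to 0.611 CPM (counts per 1000000 counts, the upper limit being 3 counts), which covers counting error only.

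SOX9 is a DNA-binding factor of the SOX family that is required for chondrocytes, the cells of cartilage, to form. It binds enhancers of matrix genes such as Col2a1 and Acan, together with SOX5 and SOX6. Sox9 is also expressed in radial glia, the progenitor cells of the embryonic brain, where it takes part in the onset of gliogenesis. Cartilage matrix is built of fibrils of type II collagen with types IX and XI, filled with aggrecan. Link protein, matrilins and COMP tie these parts together. At this stage cartilage forms the base of the skull, beneath the brain.

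The samples carried transcripts of brain cells and of other tissues. The neuronal genes Tubb3, Stmn2 and Map2 had means over the 6 samples of 1577, 550.2 and 571 CPM. Vim and Nes, intermediate filament genes on the radial glia list, had means of 1717 and 528 CPM, which were not assigned to a cell type. Col1a1, a fibrillar collagen of bone and connective tissue, had a mean of 6814 CPM, the embryonic muscle myosin Myh3 2374 CPM and the epidermal keratin Krt10 376 CPM. Of the 83 genes on the 10 marker lists used here, 75 had an ID. Every ID of the count tables had a count in some sample, so an ID alone does not show that a tissue was present. These are bulk samples, in which fewer cells of a type and less RNA per cell cannot be told apart.

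Sox9 and Col9a1 were the members that the study also measured by RT-qPCR, and its primers are shown because they place the measured part of each gene. The bases in capitals lie in the next exon.

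Sox9 forward primer: ggcaagctctggagGCTG

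Sox9 reverse primer: cctccacgaagggtctcttct

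Col9a1 forward primer: gattggcgtggaaagaacaag

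Col9a1 reverse primer: caaagccatccgcatcaatc

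Matched to the GENCODE transcripts of NCBIM37, the forward Sox9 primer spans exons 1 and 2 (chr11:112644316-112645126, intron included) and the reverse primer lies in exon 2 (chr11:112645140-112645160), both in the coding part. The product is 52 nt long. Both Col9a1 primers lie in coding exon 5 (chr1:24192129-24192149 and chr1:24192210-24192229), with a product of 101 nt. This exon is in 2 of the 4 coding Col9a1 transcripts of that annotation, the longer ones. The Sox9 site is in 1 of 2 coding transcripts.

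Col9a1 has 2 start sites in RefSeq, and the 250 bases upstream of each are shown beside those of Matn1 and Col9a2, which followed Col9a1 or Col9a3 most closely over the samples. Capitals mark CAAAG on either strand (CTTTG on the other), a core of the motif that SOX proteins bind.

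Col9a1 upstream start, GRCm38.p6 chr1:24177360-24177609, plus strand: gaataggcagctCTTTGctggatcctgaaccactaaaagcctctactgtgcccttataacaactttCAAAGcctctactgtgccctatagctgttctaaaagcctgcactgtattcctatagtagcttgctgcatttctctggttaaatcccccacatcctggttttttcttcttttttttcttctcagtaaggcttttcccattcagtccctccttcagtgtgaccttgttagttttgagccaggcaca

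Col9a1 internal start, GRCm38.p6 chr1:24194953-24195202, plus strand: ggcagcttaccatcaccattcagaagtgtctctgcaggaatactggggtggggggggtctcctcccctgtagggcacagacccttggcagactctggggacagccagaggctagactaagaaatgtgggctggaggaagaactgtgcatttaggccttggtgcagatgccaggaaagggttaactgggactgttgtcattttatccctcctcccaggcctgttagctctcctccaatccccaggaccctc

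Matn1, GRCm38.p6 chr4:130944135-130944384, plus strand: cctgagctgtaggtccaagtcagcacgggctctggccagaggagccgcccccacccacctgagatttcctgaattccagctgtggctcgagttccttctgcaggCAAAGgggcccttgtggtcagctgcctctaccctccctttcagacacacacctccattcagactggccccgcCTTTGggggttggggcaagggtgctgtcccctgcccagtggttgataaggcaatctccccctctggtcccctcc

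Col9a2, GRCm38.p6 chr4:121039316-121039565, plus strand: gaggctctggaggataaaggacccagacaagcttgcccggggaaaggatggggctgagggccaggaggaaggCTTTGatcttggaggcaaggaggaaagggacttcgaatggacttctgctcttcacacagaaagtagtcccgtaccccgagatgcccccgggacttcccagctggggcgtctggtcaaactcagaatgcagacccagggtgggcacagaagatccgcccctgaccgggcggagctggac

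The upstream Col9a1 stretch held CAAAG 2 times, 238 and 184 bases before the start, and the internal one 0 times. Matn1 held it 2 times, 146 and 74 bases before the start, and Col9a2 1 time, at 178 bases. Of the other members, Col11a1 held it 1 time and Hapln1 and Acan 0 times, so it was in 4 of 7 stretches. A second core, CAATG, searched on both strands, was in none of the 7 stretches of the 6 members with an entry (Col9a1, Col11a1, Col9a2, Matn1, Acan and Hapln1). Sox9, Col2a1, Col9a3 and Comp had no entry. CAAAG was found in 48.6% and CAATG in 32.6% of all 32851 upstream stretches of the same length, so these matches are common and are given as a description.

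The regulator itself was examined first. Sox9 (NM_011448; NCBIM37 chromosome 11, 112643538 to 112649074, 3 exons) gave 948, 686 and 1110 counts in females 1, 2 and 3, and in males 1, 2 and 3 the counts were 870, 400 and 827. Scaled for library size with TMM factors, these were 154, 137 and 113 CPM in females and 90.04, 61.2 and 82.8 CPM in males. All female samples lay above all male samples, and the gap between female 3 and male 1 was the smallest between the sexes. Females averaged 135 CPM ± 20.2 (SD, n = 3), compared with 78.0 CPM ± 15.0 (SD, n = 3) for males. The log2 fold change, male minus female, was -0.78 (SE 0.16), which is 1.72-fold higher in females. Leaving out 1 sample at a time gave -0.63 without male 2 to -0.90 without male 1. Because the genes were chosen with this contrast known, the difference is a description here, and the calls given below are not read as evidence for it.

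**Figure D1:**
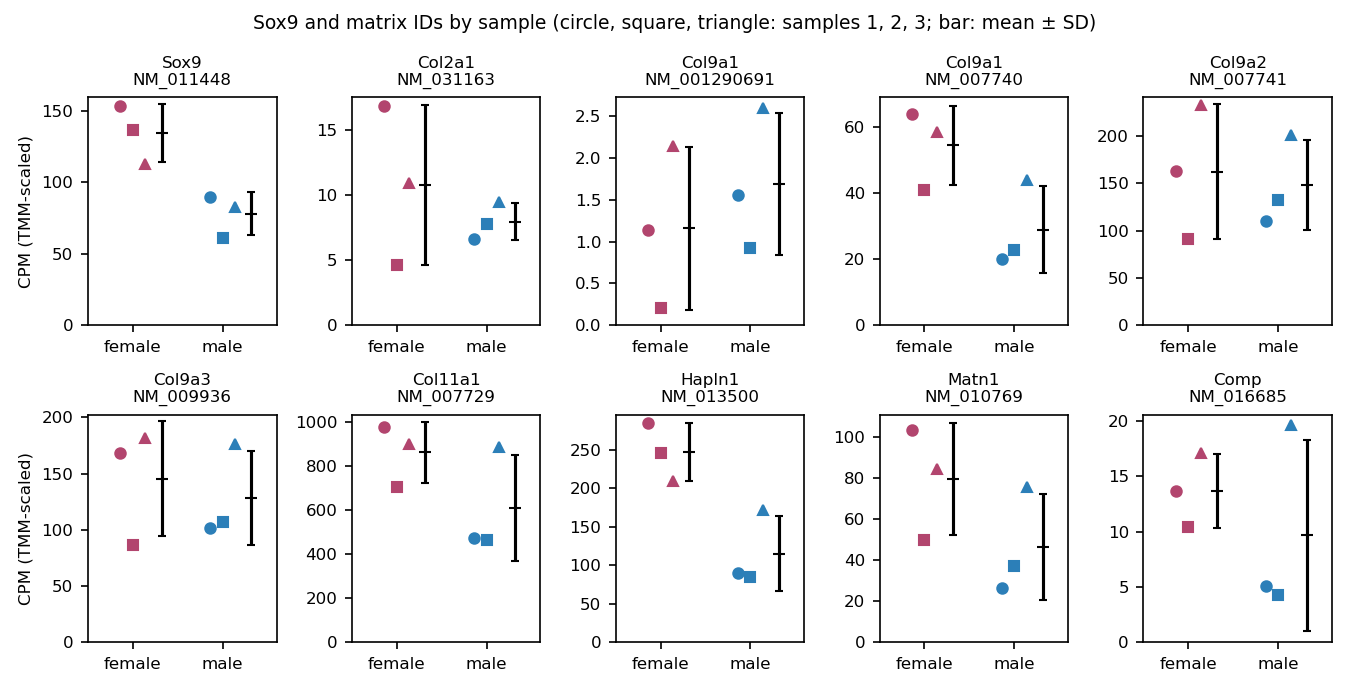
CPM of the 10 tested member IDs (y axes, TMM-scaled, from 0) in female (pink) and male (blue) samples. Circles, squares and triangles are samples 1, 2 and 3, and black bars are the mean ± SD of 3 samples. The sexes do not overlap for Sox9 and Hapln1 and overlap for the other IDs.

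The fibrillar collagens came next. Col2a1, which encodes type II collagen, the main collagen of cartilage (NM_031163; chromosome 15, 97806033 to 97835155), was counted 104, 23 and 107 times in females and 64, 51 and 95 times in males. This was 16.9, 4.59 and 10.9 CPM in females and 6.62, 7.80 and 9.51 CPM in males. Female 1 was the highest and female 2 the lowest of all 6 samples, so the male values lay inside the female range. The log2 fold change was -0.45 (SE 0.37), and it was 0.001 without female 1 and -0.79 without female 2. Col11a1, a chain of the type XI collagen that is built into type II fibrils (NM_007729; chromosome 3, 113733458 to 113923636), had 977, 706 and 901 CPM in females and 474, 466 and 888 CPM in males. Male 3 lay among the females, while males 1 and 2 were the 2 lowest samples. Its log2 fold change was -0.50 (SE 0.22), with -0.87 without male 3 and -0.33 without male 2.

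Type IX collagen sits on the surface of type II fibrils and is made of 1 chain from each of Col9a1, Col9a2 and Col9a3. The Col9a1 ID NM_007740 (chromosome 1, 24184449 to 24259577) had 63.8, 41.0 and 58.5 CPM in females and 19.97, 22.8 and 44.0 CPM in males. Males 1 and 2 were lowest, and male 3 lay just above female 2. Its log2 fold change was -0.91 (SE 0.27), with -1.35 without male 3 and -0.70 without male 1. The other Col9a1 ID, NM_001290691, was counted 7, 1 and 21 times in females and 15, 6 and 26 times in males, with a log2 fold change of 0.47 (SE 0.71), from 0.031 without male 3 to 1.29 without female 3. Its SE exceeded the difference, and the counts of 2 IDs of 1 gene depend on how reads were divided between them.

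Values of the other chains overlapped between the sexes. Col9a2 (NM_007741; chromosome 4, 120711990 to 120727927) had 163, 90.7 and 233 CPM in females and 110.1, 133 and 201 CPM in males. Col9a3 (NM_009936; chromosome 2, 180332495 to 180356894) had 169, 86.9 and 182 CPM in females and 101, 107 and 177 CPM in males. For both, sample 3 of each sex was the highest of its sex and female 2 the lowest of all. Their log2 fold changes were -0.14 (SE 0.28) and -0.19 (SE 0.26). Single samples moved these values to either side. Col9a2 ran from -0.42 without female 2 or male 3 to 0.035 without male 1 and 0.23 without female 3. Col9a3 ran from -0.48 without male 3 and -0.45 without female 2 to 0.013 without female 3. The chains of this one collagen therefore had log2 fold changes from -0.91 to -0.14 among the 3 IDs that averaged 50 counts or more, and no test of the difference between the chains was made.

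The linking proteins held the lowest fold change. Hapln1, the link protein that fixes aggrecan to hyaluronan and is also part of the matrix around neurons (NM_013500; chromosome 13, 89680241 to 89751437), had 285, 246 and 209.6 CPM in females and 89.7, 84.2 and 172 CPM in males. As for Sox9, all females lay above all males, with male 3 closest to them. Females averaged 247 CPM ± 37.5 (SD, n = 3), compared with 115 CPM ± 48.9 (SD, n = 3) for males. The log2 fold change was -1.09 (SE 0.23), or 2.13-fold higher in females, with -1.49 without male 3 and -0.91 without male 2. Matn1, a matrilin of cartilage (NM_010769; chromosome 4, 130500300 to 130511390), had 104, 49.9 and 84.7 CPM in females and 26.4, 37.2 and 75.5 CPM in males. Female 2 lay below male 3, so the sexes overlapped, and the log2 fold change was -0.78 (SE 0.33), with -1.32 without male 3 and -0.49 without male 1. Comp, a pentameric protein that binds collagen fibrils (NM_016685; chromosome 8, 72897447 to 72905964), had 13.6, 10.4 and 17.1 CPM in females and 5.07, 4.28 and 19.6 CPM in males. Male 3 was the highest of all samples for Comp and males 1 and 2 were the lowest, which gave a log2 fold change of -0.49 (SE 0.46). Leaving out 1 sample gave -1.54 without male 3, -0.17 without male 1 and -0.15 without male 2.

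Acan, the gene of aggrecan, was hardly counted. Its ID (NM_001361500; chromosome 7, 86198369 to 86259985) was counted 2, 0 and 2 times in females and 0, 0 and 2 times in males. All samples were at or under the limit of 3 counts, so it was not tested and no fold is given.

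IDs of genes with several listed transcripts had lower counts. Of the 10 genes, 6 had 1 curated transcript in RefSeq, and Col2a1, Col9a1, Col9a3 and Acan had 2. Among all mRNA IDs of the tables, the mean over the samples was under 10 counts for 30.9% of 11458 IDs from genes with 1 curated transcript, and for 69.5% of 8098 IDs from genes with 2 or more. The median of the mean counts was 121 and 3.17. Among the members with 2 transcripts, Col9a3 averaged 1116 counts, Col2a1 74 and Acan 1. The part of the listing in the low counts of Col2a1, Acan and Col9a1 NM_001290691 was not tested.

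Levels of different genes were compared per kilobase of the longest annotated transcript. Col11a1 had the highest mean level, 95.9 CPM per kb ± 29.2 (SD over the 6 samples). It was followed by Col9a2 (53.1 CPM per kb), Col9a3 (44.96), Hapln1 (35.8), Matn1 (31.4) and Sox9 (25.7). The range of each of these over the samples overlapped that of the next. Col11a1 exceeded Col9a2 and Col9a2 exceeded Col9a3 in 6 of 6 samples, but Hapln1 exceeded Matn1 in only 3 of 6. Col9a1 NM_007740 (10.9 CPM per kb), Comp (4.81) and Col2a1 (1.84) were lower, in the same order in all 6 samples. The other Col9a1 ID had 0.372 and Acan 0.0165 CPM per kb. Per kilobase, Sox9 thus lay among the matrix genes and above Col2a1, with the limit on the Col2a1 count given above.

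As a group, the members were mostly lower in males. Of the 10 member IDs tested, 9 had a negative log2 fold change, compared with 51.0% of all 13374 tested IDs. Their median was -0.50, and that of the 9 matrix IDs alone was -0.49, against -0.01 over all tested IDs and -0.03 over the 8259 tested IDs with transcripts of 2001 to 7667 nt, the span of the members. Without male 3 the median of the matrix IDs was -0.87, and without male 1 it was -0.33. Among the members 0 were called by edgeR's quasi-likelihood test at an adjusted p under 0.05, where 0.0299% of all tested IDs were called. At an unadjusted p under 0.05 there were 5 (Sox9, Hapln1, Col9a1 NM_007740, Col11a1 and Matn1), all higher in females, and 4.82% of all tested IDs met this in that direction. DESeq2 called 3 (Sox9, Hapln1 and Col9a1 NM_007740), against 0.800% of all tested IDs. Its independent filter left an adjusted p for 7 of the 10 member IDs, not for Col2a1, Comp and Col9a1 NM_001290691, and for 5595 of all tested IDs, of which 1.91% were called. Without male 1 edgeR called Sox9, among 12 of all 13270 IDs tested there. Without male 3 it called Hapln1, among 7 of 12997. The CPM of all females lay above those of all males for 2 member IDs, Sox9 and Hapln1, and for 8.35% of all tested IDs. The members were chosen with the contrast known, so nothing is read from these counts.

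**Figure D2:**
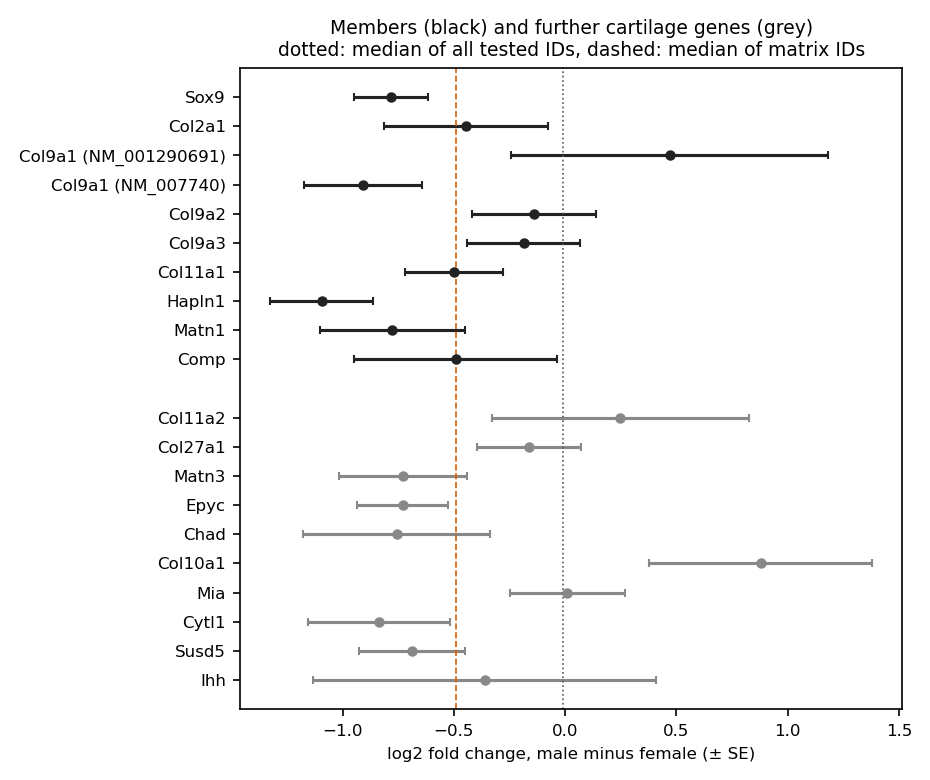
Log2 fold change of male minus female (x axis, points with bars of ± 1 SE) for the 10 member IDs tested (black) and 10 tested IDs of further cartilage genes (grey). The dashed line is the median of the matrix IDs (-0.49) and the dotted line that of all tested IDs (-0.01); most points lie left of the dotted line, with Col9a1 NM_001290691 at 0.47 and Col10a1 at 0.88 on the right.

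Whether Sox9 followed the matrix genes was then examined sample by sample. The matrix level was the mean log2 CPM of the 8 matrix IDs that averaged 50 counts or more. In females 1, 2 and 3 it was 6.68, 5.88 and 6.60, and in males 1, 2 and 3 it was 5.39, 5.50 and 6.46. The log2 CPM of Sox9 was 7.27, 7.10 and 6.83 in females and 6.50, 5.94 and 6.38 in males. The matrix level separated female 1, female 3 and male 3 from the other samples, whereas Sox9 separated the females from the males.

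Within each sex the order of the samples differed between Sox9 and the matrix level. Among females, Sox9 was highest in female 1 and lowest in female 3, but the matrix level was lowest in female 2. Among males, Sox9 was highest in male 1, where the matrix level was lowest of all samples. The spread of the matrix level was also larger, 0.80 in females and 1.07 in males on the log2 scale, compared with 0.44 and 0.56 for Sox9. Female 3 and male 3 had matrix levels that differed by 0.14, while their Sox9 levels differed by 0.45.

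**Figure D3:**
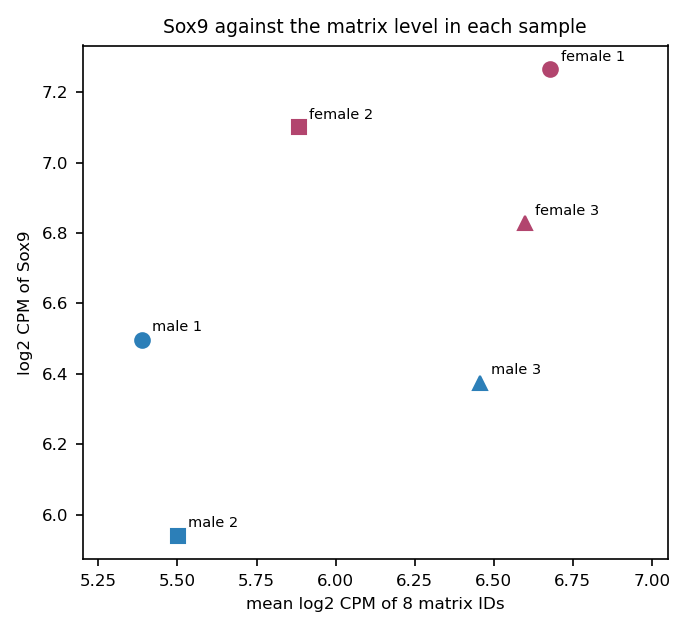
Log2 CPM of Sox9 (y axis) against the mean log2 CPM of 8 matrix IDs (x axis) in each female (pink) and male (blue) sample. Every female point lies above every male point on the y axis, while male 3 (6.46) lies with females 1 and 3 on the x axis.

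Relative to the matrix genes, the sexes overlapped. Sox9 minus the matrix level was 0.59, 1.22 and 0.23 in females and 1.11, 0.44 and -0.08 in males, with means of 0.68 ± 0.50 (SD, n = 3) and 0.49 ± 0.60 (SD, n = 3). Female 2 and male 1 had the highest values and male 3 the lowest. In linear units, the Sox9 CPM came to 8.58%, 11.1% and 6.68% of the summed CPM of the 8 matrix IDs in females and to 10.8%, 7.10% and 5.22% in males. The matrix level differed by -0.60 (male minus female), and Sox9 relative to it was 0.19 higher in females, less than the SD within either sex.

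A fit with a cartilage level as a covariate was also made. The covariate was the mean centered log2 CPM of 10 IDs of further cartilage genes, none of them a member. It was 0.34, -0.10 and 0.38 in females and -0.55, -0.56 and 0.48 in males. With it beside sex in edgeR's model, the log2 fold change of Sox9 was -0.75 (SE 0.20), compared with -0.78 (SE 0.16) without it. A covariate of 6 values of which males 1 and 2 were the lowest is partly aligned with sex. The 10 IDs of the covariate had equal weight. Among them were Col10a1, with 635 counts in male 3 against 63 to 208 in the other samples, and Ihh NM_010544, with 0 to 26 counts. No fit without these IDs was made.

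**Figure D4:**
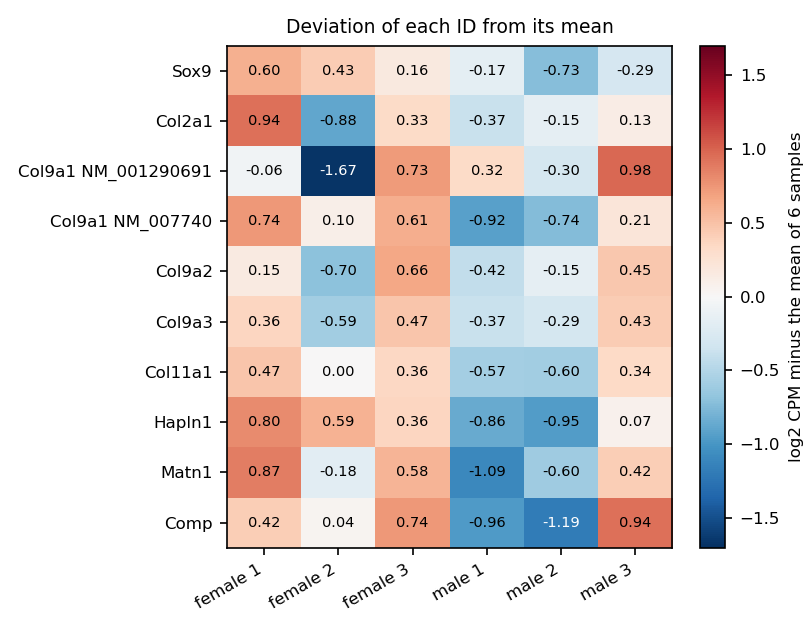
Log2 CPM of each tested member ID (rows) in each sample (columns), minus the mean of the 6 samples, as color and number. Female 2 is above the mean for Sox9 (0.43) and Hapln1 (0.59) and below it for Col2a1 (-0.88), Col9a2 (-0.70) and Col9a3 (-0.59), and male 3 is below the mean for Sox9 (-0.29) and above it for every other ID.

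The profiles over the 6 samples were compared by the root mean square distance between centered log2 CPM values, over the 8357 IDs that averaged 50 counts or more. The distances describe these samples and carry no test. Col9a2 and Col9a3 were nearest to each other, at 0.14, as were Col9a1 NM_007740 and Matn1, at 0.18. Sox9 had Hapln1 as its nearest member, at 0.36, which was rank 1012 of 8357, and Col11a1 at 0.37, rank 1162. Comp was the farthest member from Sox9, at 0.69, and the median over all IDs was 0.50. From Col2a1, Col9a3 had rank 6 at 0.30 and Col9a2 rank 62 at 0.38, while Sox9 had rank 5157 at 0.64. Part of the Col2a1 profile is counting error, since female 2 had 23 counts.

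The IDs nearest to Sox9 outside the members were Bpifc, Fcho2, Hivep3, Proser1 and Srrm4, at 0.10 to 0.11. All of them were higher in females, with log2 fold changes from -0.77 (Proser1, SE 0.17) to -0.59 (Fcho2, SE 0.16). This direction and size followed from the selection, since they were picked for closeness to Sox9 over these same samples. Fcho2, for example, had 173, 164 and 135 CPM in females and 119, 82.0 and 112 CPM in males. The IDs nearest to Col2a1, picked in the same way, were 2700099C18Rik, Slc25a42, Ppp4r1l-ps, Otogl and Myf6, at 0.15 to 0.30. Their log2 fold changes lay between -0.36 and -0.02.

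Genes outside the members give the surroundings of Sox9. Of 13 further cartilage genes, 10 had an ID and 10 IDs were tested. None was called by edgeR (lowest adjusted p 0.338) or among the 2 with an adjusted p from DESeq2, and 4 had an unadjusted p under 0.05, all of them higher in females, where 4.82% of all tested IDs met this. The log2 fold changes ran from -0.84 to 0.88, with 7 of 10 negative and a median of -0.53. By level per kilobase the leading genes were Mia, with a log2 fold change of 0.01 (SE 0.26), Col27a1, with -0.16 (SE 0.23), and Cytl1, with -0.84 (SE 0.32). Epyc, the small proteoglycan epiphycan, was the one whose sexes did not overlap, at 33.8 CPM ± 4.14 (SD, n = 3) for females, compared with 20.3 CPM ± 5.25 (SD, n = 3) for males (log2 fold change -0.73, SE 0.20), and it was picked out after its values were seen. Over all tested IDs, 8.35% had all females above all males. Col10a1, the collagen of hypertrophic cartilage, had 635 counts in male 3 against 63 to 208 in the other samples. The summed level of the list was 299.8, 215 and 311 CPM in females and 153, 201 and 331 CPM in males, with male 3 the highest and male 1 the lowest. The place of male 3 rested on Col10a1, since without it the sums were 289.6, 197 and 289.4 CPM in females and 141, 185.5 and 267 CPM in males, with females 1 and 3 above male 3.

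Partners and relatives of Sox9 were examined in the same way. Of 7 IDs tested, 0 were called by edgeR (lowest adjusted p 0.627), 0 of the 2 with an adjusted p from DESeq2, and 0 at an unadjusted p under 0.05. Their log2 fold changes ran from -1.32 (Sox6, SE 1.02) to 0.35 (Sox5, SE 0.78). Wwp2, which hosts the cartilage microRNA miR-140, had a log2 fold change of -0.09 (SE 0.12), Sox8 -0.13 (SE 0.14) and Sox10, a factor of oligodendrocyte and neural crest lineages, 0.09 (SE 0.20). For Sox8 all females (47.1 to 48.8 CPM) lay above all males (39.7 to 45.9 CPM), as for 8.35% of all tested IDs. Sox5 and Sox6, the partners of SOX9 on matrix enhancers, had 0 to 14 counts per ID and sample. Nkx3-2, a factor of early cartilage named after its values were seen, averaged 9.67 counts and had -0.79 (SE 0.82). With SE of this size, these IDs do not show whether the partners differed as Sox9 did.

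Radial glia express Sox9, so their genes were set beside it. Of 14 IDs tested, 0 were called by edgeR (lowest adjusted p 0.338) and 0 of the 11 with an adjusted p from DESeq2, which gave none for Hes5, while an unadjusted p under 0.05 was reached by 1 that was higher in females and 3 that were higher in males. Over all tested IDs these shares were 4.82% and 6.68%. For the list, the log2 fold changes had a median of 0.08. The leading genes Vim, Fabp7 and Tnc had 0.05 (SE 0.12), 0.27 (SE 0.16) and -0.12 (SE 0.13). Hes5, Hes1 and Sox2, named after their values were seen, had values of all males above those of all females, and their log2 fold changes were 0.77 (SE 0.21) for Hes5, 0.37 (SE 0.14) for Hes1 and 0.39 (SE 0.15) for Sox2, opposite in sign to that of Sox9. Over all tested IDs, 8.70% had all males above all females. In the direction of Sox9, Ptprz1 had -0.40 (SE 0.17), the 1 ID counted above as higher in females, and Gli3 had -0.27 (SE 0.14), both also named after their values were seen. In all, 6 of the 14 were higher in females and 8 in males. The summed level of the list was 4832 to 5192 CPM in females and 4964 to 5071 CPM in males, the narrowest relative range of the lists.

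Other tissues varied in their own ways. The osteoblast list was led by Ibsp (bone sialoprotein), Phex and Bglap, the last with 2 to 9 counts and not tested, and its sum was 564, 679 and 802 CPM in females and 679, 396 and 994 CPM in males. The fibroblast and meninges list, led by Col1a2, Col3a1 and Col1a1, had 19609 to 23888 CPM in females and 17974.5 to 26328 CPM in males. Skeletal muscle (Myh3, Tnni2 and Myh8) had 3451 to 4010 CPM in females and 3054 to 3896 CPM in males. Epidermis (Krt10, Krt1 and Krt5) had 858 to 1085 CPM in females and 636 to 1661 CPM in males. By these sums, male 3 was the highest and male 2 the lowest sample for both the osteoblast and the fibroblast list. Ibsp alone had 935 CPM in male 3 and 360 CPM in male 2, so it made up most of the osteoblast sum. Col1a1 and Col1a2 were also highest in male 3 and lowest in male 2. Col3a1, however, was highest in female 3 and lowest in female 2, and Lum and Ogn were highest in female 2.

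The remaining lists had other orders. Choroid plexus (Ttr, Aqp1 and Kcnj13) had 589 to 702 CPM in females and 726 to 892 CPM in males, with all males above all females. This rested on Ttr, since without it the sums were 162 to 193 CPM in females and 158 to 196 CPM in males, and the other IDs of the list overlapped between the sexes. Lens crystallins (Crygd, Crygb and Cryba2) had 56.1 to 73.7 CPM in females and 27.4, 158 and 111 CPM in males. The neuronal list had 2429 to 2861 CPM in females and 2647 to 3447 CPM in males. In these 7 lists, 0 of 37 tested IDs were called by edgeR (lowest adjusted p 0.351) and 0 of the 25 with an adjusted p from DESeq2, while an unadjusted p under 0.05 was reached by 2 that were higher in females and 3 that were higher in males, shares near the 4.82% and 6.68% over all tested IDs. Some list IDs were called under other settings. DESeq2 with 1 RUVr factor (a factor of unwanted variation estimated from residuals) called Epyc, Susd5, Hes5, Ttr and Tubb3 among 370 of all IDs. Epyc and Hes5 were also among the 483 called by edgeR with 2 such factors, and, with Col10a1 and Crygb, among the 276 called without a count filter. Without male 1, edgeR called Crygb, among 12 of all 13270 IDs tested there. The part of these lists in the difference of Sox9 was not tested.

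**Figure D5:**
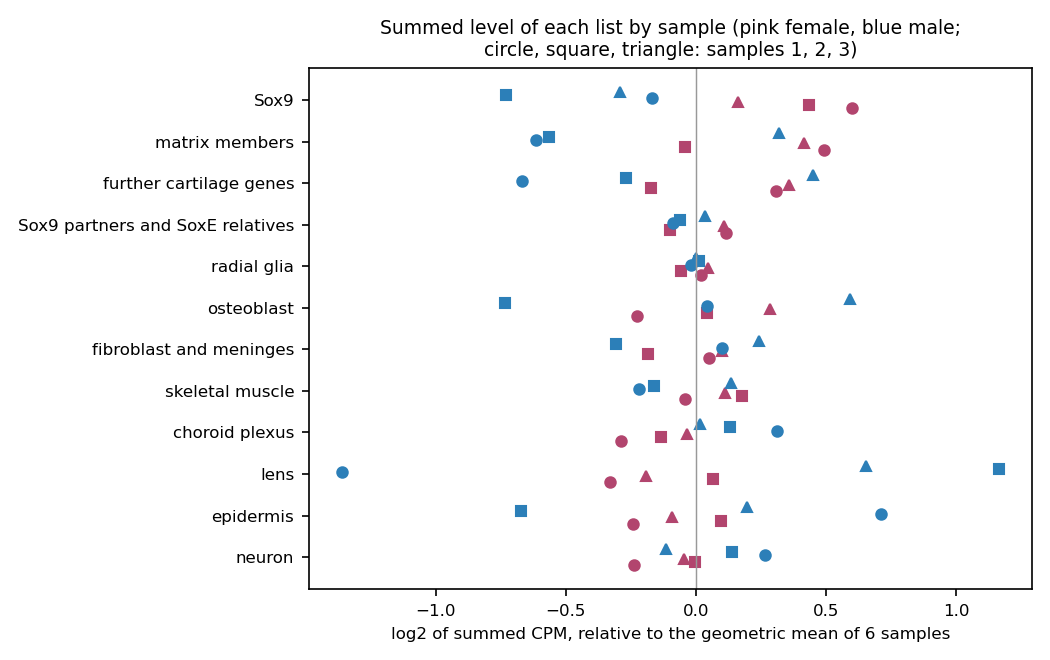
Log2 of the CPM of Sox9, of the summed CPM of the 8 matrix IDs and of each list, relative to the geometric mean of the 6 samples (x axis), for each sample (pink female, blue male; circle, square and triangle are samples 1, 2 and 3). Sox9 and the choroid plexus sum, the latter through Ttr, separate the sexes in opposite directions, while male 3 lies with females 1 and 3 in both cartilage rows (0.32 and 0.45).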

How the data were processed

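RNA-seq was performed on whole brains of 3 female and 3 male pools of E15.5 embryos. The deposited values are raw counts per RefSeq transcript ID that the authors made from TruSeq libraries, in paired-end reads. The submitters' processing notes name Trimmomatic 0.32, TopHat2 2.1.1, Cufflinks 2.2.1, featureCounts 1.5.1 and the mm9 build. Strand and multi-mapping settings are not given in the sources used here. Symbols were matched to 23359 of 23485 IDs through a RefSeq table (GRCm38.p6), and positions and lengths come from GENCODE on NCBIM37.

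The 13374 IDs that reached 10 counts in any sample were tested with edgeR 4.0.16 (quasi-likelihood test, TMM factors, R 4.3.3), with Benjamini-Hochberg adjustment over all of them and a threshold of 0.05. DESeq2 1.42.0 was an alternative, and its adjusted p given as NA stayed NA. Log2 CPM used a prior count of 2. P-values measure the spread between pools.

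The members and lists were chosen with earlier results of these data known. All members are named, with the 3 IDs of highest CPM per kb from each list and the 5 IDs nearest to Sox9 and to Col2a1. Other genes named were chosen after their values were seen. Alternatives were other scalings, count filters, RUVr factors, IDs summed per gene, a replicate block, a length trend, a cartilage covariate and leaving out each sample. Snorc, Cnmd, Ucma, Pax6, Nfia, Folr1, Cryaa and Tnnt3 were not analysed here.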

Additional observations from a re-analysis of the deposited data

How the results depend on the processing

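The log2 fold change of Sox9 kept its sign under every alternative run, from -0.90 without male 1 to -0.63 without male 2 and from -0.84 to -0.69 under the others. The median of the matrix IDs ran from -0.87 without male 3 to -0.33 without male 1 and was -0.32 with a length trend removed. Of 168 values of single members, 4 had the opposite sign, all given above (Col2a1, Col9a2 in 2 settings and Col9a3), and Comp moved by more than the replicate SD without male 3, to -1.54. Counts of called IDs depended most on the settings. Over all IDs edgeR called 4, compared with 276 without a count filter, 1 with 10 or more counts in every sample, 107 by DESeq2, 370 by DESeq2 with 1 RUVr factor, and 36 and 483 by edgeR with 1 and 2 RUVr factors. Leaving out 1 sample gave 4 to 51, the highest without female 3, with 12, 8 and 7 without males 1, 2 and 3. Member IDs called were 0, compared with 4 without a filter (Col9a1, Hapln1, Matn1 and Sox9), 3 by DESeq2, 3 by DESeq2 with 1 RUVr factor, 1 by edgeR with 1 RUVr factor (Hapln1), 3 with 2, and 0 to 1 with a sample left out. List IDs called were 0, compared with 4 without a filter (Col10a1, Crygb, Epyc and Hes5), 5 by DESeq2 with 1 RUVr factor (Epyc, Hes5, Susd5, Ttr and Tubb3), 2 by edgeR with 2 (Epyc and Hes5), and 0 to 1 with a sample left out (Crygb without male 1). The cause was not tested. The replicate block gave 4 calls, 0 of them members, with -0.79 (SE 0.17) for Sox9. Samples of the same number did not deviate together (correlations of -0.29 to -0.06, and 0 of 6 correlated best with their own number). The labels do not say what the numbers stand for, and a shared litter or batch was not tested. Low counts limit what can be said of Acan, Sox5, Sox6 and Col9a1 NM_001290691, and their cause was not tested.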
